A study of Saccharomyces cerevisiae with 18 samples.

Results

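The PHO23 deletion was set against the CLIB215 allele of PHO23 in BY4741, a laboratory strain of Saccharomyces cerevisiae, over the 4956 ORFs that had a value in all 6 columns of the deposited table, out of 6650 named ORFs. The column of the deletion strain (titles delPHO23) and that of the allele strain (titles CLIB215PHO23) stand for 3 libraries each. In the first strain PHO23 was removed, and in the second it was exchanged for the PHO23 gene of strain CLIB215. The 4 other columns are labelled as BY4741 with RXT3 deleted, with the T73 or the CLIB215 allele of RXT3, or with the T73 allele of PHO23. All cells grew in rich medium with xylulose, a pentose sugar, and were harvested in log phase. Unmodified BY4741 is not analysed here. Whether a strain came from 1 clone is not given in the sources used here. The study concerns natural differences between yeast strains in pentose fermentation and the part of histone deacetylases in them, and the comparison asks how loss of PHO23 differs from carrying the CLIB215 form of it.

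Pho23 is a subunit of Rpd3L, the large form of the Rpd3 histone deacetylase complex. It carries a PHD finger, a domain that binds methylated histone H3 at active promoters, and the gene was named for its part in the control of the acid phosphatase PHO5. Rpd3L is brought to promoters by DNA-binding proteins such as Ume6, which recognises the URS1 element of early meiotic and some metabolic genes, and by Ash1.

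Each column holds 1 value per ORF, centred by the authors in a way not given in the sources used here. The log scale is read here as log2, although the table does not state the base. The values of an ORF need not lie around 0: IMA5 was below 0 in all 6 columns, from −1.33 to −0.10. All differences are deletion minus CLIB215 allele, in these log units, so 1 unit is 2-fold if the base is 2. A value is not a level and not a change against unmodified cells. No column has replicates, so no difference has a replicate check, no test was possible, and "higher" or "lower" describes the pooled columns only. ORFs at least 1 unit apart are counted as a size rule. For 3 of the 6 groups, the deletion among them, the genotype field of the samples names another strain than the title does. The others are those titled T73RXT3 and CLIB215RXT3. Both are among the other columns that the deletion and the CLIB215 allele of PHO23 are set beside below. The title is followed here. PHO23 had no value in the column titled as its deletion, and −0.07 in the column titled T73RXT3, to which the genotype field gives that deletion. A check with columns named by the genotype field took 58 genes past 1 unit, named by rank or from a gene list. Of these, 15 stayed past 1 unit in the same direction and 6 changed sign. Other genes named below for their values, such as PMA1, were not in this check.

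The edited locus came first. PHO23 (YNL097C, chromosome XIV, 441366 to 442358, minus strand, build R64) had no value in the deletion column and −0.88 in the CLIB215 column. Its values in the 4 other columns ran from −0.61 to 0.35. Because it lacks a value in the deletion it is not among the 4956 ORFs compared.

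The ORF listed as YNL097W-A, whose systematic name numbers it with PHO23, had by far the largest difference of all, −7.13. Its value was −2.97 in the deletion and 4.16 with the CLIB215 allele. With the T73 allele of PHO23 it was 4.61, while the 3 RXT3 columns ran from −1.77 to −1.11. Both strains with an exchanged PHO23 thus stood far above the other 4, and the deletion stood lowest of all 6. The RefSeq annotation of R64 does not list this ORF, so its position and any overlap with PHO23 cannot be given. Its values move with the edit at the locus, and how its reads were assigned was not tested.

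The coding genes on either side of PHO23 differed far less than YNL097W-A, although YNL095C was more than 1 unit apart. RAS2, a GTPase gene of the protein kinase A pathway, differed by −0.17, with −0.10 in the deletion and 0.06 with the allele. RPS7B, a gene of the small ribosomal subunit, differed by 0.06, APP1, a phosphatidate phosphatase gene, by −0.08, and OCA1, a putative phosphatase gene, by 0.76. PLS1 had −0.14 in the deletion and no value with the allele. YNL095C, which lacks a value in 2 of the other columns, had 0.24 in the deletion and 1.37 with the allele. It thus differed by −1.13, but is not among the 4956 ORFs compared. RXT3, the subunit gene edited in the other strains, differed by 0.21, with −0.15 in the deletion and −0.36 with the allele. In the column labelled RXT3 deleted it had −0.05, higher than in both, so that column does not show the loss its label names.

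Over all 4956 ORFs the differences were centred near 0 with a median of 0.02, and 2546 of them (51.4%) were above 0. Their SD across ORFs was 0.452, or 0.441 without YNL097W-A. The central 95% ran from −0.87 to 0.94, and 3785 ORFs (76.4%) differed by less than 0.5. By the size rule 97 ORFs were higher in the deletion (1.96%) and 62 were lower (1.25%), together 3.21%. Just past the rule lay YMR030W-A at 1.0015 and CSH1 at −1.0012, and just short of it YJR084W at 0.997 and YMR175W-A at −0.998, so the count has no natural edge. Of the 15 possible pairs of columns this one ranked the seventh from the least different by the SD of its differences. The 6 closer pairs had SDs of 0.391 to 0.426, and the 8 wider pairs, each of which sets the deletion or the CLIB215 allele against one of the other 4 columns, had 0.533 to 0.607.

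**Figure D1:**
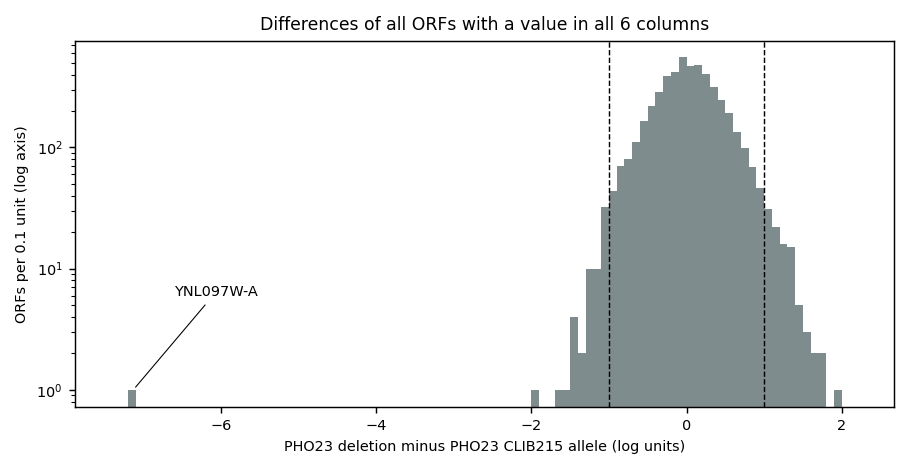
Number of ORFs (log axis) by their difference, PHO23 deletion minus PHO23 CLIB215 allele, in log units, for the 4956 ORFs with a value in all 6 columns; dashed lines mark 1 unit either way. YNL097W-A lies alone at −7.13, and all other ORFs lie between −1.91 and 1.98.

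The genes that set the deletion and the CLIB215 allele farthest from the other 4 columns were less than 1 unit apart between these strains. These are the 20 annotated ORFs with the largest distance between the mean of both columns and the mean of the other 4. The T73 allele of PHO23 is among those other 4 columns. The 20 ORFs were chosen after their values were seen, and 18 were low and 2 high in both strains. None differed by 1 unit, but only 3.21% of all 4956 ORFs did, so few or none of any 20 ORFs would. The small heat-shock gene HSP12 had −3.59 in the deletion and −3.34 with the allele. The gluconeogenesis gene PCK1 had −2.23 in the deletion and −2.43 with the allele. The phospholipid methyltransferase gene OPI3 had 1.78 in the deletion and 1.69 with the allele. Differences within the 20 ran from −0.54 for FBP1, which codes for fructose bisphosphatase, to 0.96 for the kynureninase gene BNA5. The 2 metallothionein genes CUP1-1 and CUP1-2, near-identical copies, have the same value in every column, as do RSC30 and its partial copy YHR054C.

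**Figure D2:**
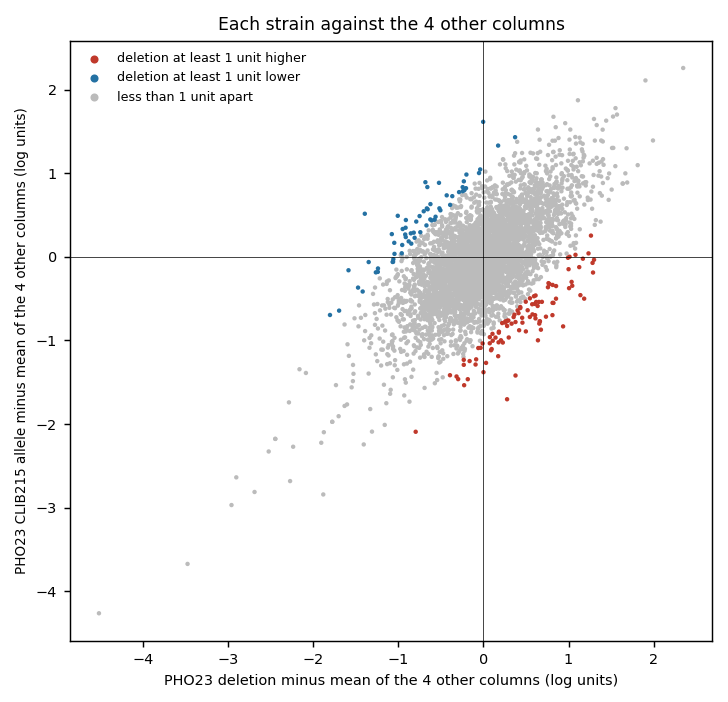
Each point is 1 ORF (YNL097W-A left out); the horizontal axis gives the PHO23 deletion and the vertical axis the PHO23 CLIB215 allele, each minus the mean of the 4 other columns, in log units. That mean enters both axes, which by itself spreads points along the diagonal. The 97 ORFs at least 1 unit higher in the deletion lie below the main cloud and 61 of the 62 lower ones lie above it.

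The place of both strains among the 6 columns is a description, since choosing ORFs for a large difference by itself puts the deletion and the allele at opposite ends. Of the 97 ORFs higher in the deletion, the deletion was the highest of the 6 columns for 56 and the CLIB215 allele the lowest for 77, with 39 in both states. Relative to the mean of the other 4 columns, the median of these ORFs was 0.46 in the deletion and −0.76 with the allele. Of the 62 ORFs lower in the deletion, the deletion was the lowest column for 48 and the allele the highest for 37, with 23 in both states. Here the medians were −0.77 in the deletion and 0.44 with the allele. Over all 4956 ORFs the deletion was the highest column for 940 and the lowest for 1051, and the allele the lowest for 1167 and the highest for 919. As a yardstick within each ORF, the range over the 4 other columns was used, which holds any real difference between those strains. The difference exceeded that range for 89 of the 97 higher and 57 of the 62 lower ORFs, against 25.9% of all 4956; that the ORFs were picked for a large difference raises the first 2 counts.

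The 15 annotated ORFs with the largest positive differences ran from 1.38 to 1.98, and in some of them the CLIB215 allele was the column that stood apart. CPS1 (YJL172W, chromosome X, 97737 to 99467), a vacuolar carboxypeptidase gene, differed by 1.98, with 0.61 in the deletion and −1.37 with the CLIB215 allele. The 4 other columns lay between −0.26 and 0.69, so that the allele strain stood apart and the deletion did not. PGS1 (YCL004W, chromosome III, 109105 to 110670), whose product makes phosphatidylglycerol phosphate on the way to cardiolipin, had 0.53 in the deletion and −1.27 with the allele, against −0.09 to 0.42 elsewhere. Here the deletion was the highest column, but the allele lay farther from the others. YPQ2 (chromosome IV, 1181801 to 1182754), a vacuolar amino acid transporter gene, had 0.69 in the deletion and −1.07 with the allele, beside −0.68 to 0.11 in the other columns. MDM1, a tether gene of the contact between nuclear envelope and vacuole, had 0.82 in the deletion and −0.82 with the allele.

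Other genes of the 15 stood high in the deletion. GPB1 (YOR371C, chromosome XV, 1031489 to 1034182), a kelch-repeat protein gene that restrains protein kinase A signalling, had 1.23 in the deletion and −0.45 with the allele, and the other columns lay between −0.29 and 0.37. KAR9 (YPL269W, chromosome XVI, 33013 to 34947), which orients the spindle towards the bud, had 1.38 in the deletion and −0.22 with the allele, beside −0.08 to 0.50. BRN1, a condensin subunit gene, had 1.09 in the deletion and −0.29 with the allele, beside −0.01 to 0.18. For these 3 genes the deletion was farther from the other columns than the allele was. ASA1, a gene of the ASTRA complex, had 0.98 in the deletion and −0.50 with the allele.

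In the remaining 7 of the 15 the deletion was above 0 and the allele below it. SIA1, implicated in the activation of the plasma membrane proton pump, differed by 1.51. CAB3, of coenzyme A synthesis, differed by 1.46, SSK1, the response regulator of the osmosensing HOG pathway, by 1.45, and ASI1, an inner nuclear membrane ubiquitin ligase gene, by 1.44. BUB2, of the spindle position checkpoint, differed by 1.43, DLS1, a subunit gene of the Isw2 chromatin complex, by 1.39, and YER134C, a magnesium-dependent acid phosphatase gene, by 1.38. YER134C was set apart by the allele, with 0.29 in the deletion, −1.09 with the allele and 0.15 to 0.49 elsewhere. YMR119W-A, an ORF that the annotation lacks and whose name numbers it with ASI1 (YMR119W), had nearly the values of ASI1: 0.68 in the deletion and −0.87 with the allele, against 0.63 and −0.81 for ASI1.

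Further ORFs past 1 unit are named because of their values, and related genes short of it were not counted. PMA1, the proton pump gene, differed by 1.36, with 0.30 in the deletion and −1.06 with the allele. HOG1, the kinase gene of the HOG pathway, differed by 1.05, and NBP2, whose product brings a phosphatase to that kinase, by 1.25. CAB1, the pantothenate kinase gene that starts coenzyme A synthesis, differed by 1.03. PEX4 and PEX22, which code for a ubiquitin-conjugating enzyme at the peroxisome and its anchor, differed by 1.19 and 1.11. TOR1, the growth control kinase gene, differed by 1.37, with 0.68 in the deletion and −0.69 with the allele, but the T73 allele of PHO23 stood lower still at −0.79.

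At the other end, ACA1 (YER045C, chromosome V, 240032 to 241501), a bZIP transcription factor gene of the ATF/CREB family, had the lowest difference of the annotated ORFs, −1.91. It had −1.35 in the deletion and 0.56 with the CLIB215 allele, while the 4 other columns lay between −0.11 and 0.38. RFC2, a clamp loader gene of DNA replication, had −1.03 in the deletion and 0.47 with the allele, beside −0.40 to 0.32. YAT1 (chromosome I, 190193 to 192256), a mitochondrial carnitine acetyltransferase gene, had −1.31 in the deletion and 0.12 with the allele, beside −0.42 to 0.71. In these 3 genes the deletion lay farther from the other columns than the allele did. The same held for PRM5, a pheromone-regulated gene, which had −1.24 in the deletion and 0.04 with the allele, beside −0.58 to 0.95.

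SAY1 (chromosome VII, 1017967 to 1019241), whose product removes acetyl groups from sterols, was set apart by the allele instead. It had −0.16 in the deletion and 1.46 with the allele, and the 4 other columns lay between −0.40 and 0.14. AFI1, a cell polarity gene, had −0.57 in the deletion and 1.00 with the allele. IES3, an INO80 subunit gene, had −0.41 in the deletion and 0.99 with the allele, beside −0.09 to 0.42. SSN8, the cyclin gene of the Mediator kinase module, had −0.76 in the deletion and 0.73 with the allele and differed by −1.49, with both strains outside the range of −0.56 to 0.21 of the other columns.

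Of the other 7 lowest genes, DON1, which works at the leading edge of the prospore membrane, and PAD1, named for phenylacrylic acid decarboxylase, both differed by −1.35. MEF1, a mitochondrial translation factor gene, differed by −1.28, GAG1 by −1.26 and URN1 by −1.25. PZF1, the gene of the RNA polymerase III factor TFIIIA, also differed by −1.25, and SNP1, of the U1 small nuclear ribonucleoprotein, by −1.24. PZF1 was not set apart from all other columns, since its −0.69 in the deletion lay above the −0.72 of the column labelled RXT3 deleted.

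**Figure D3:**
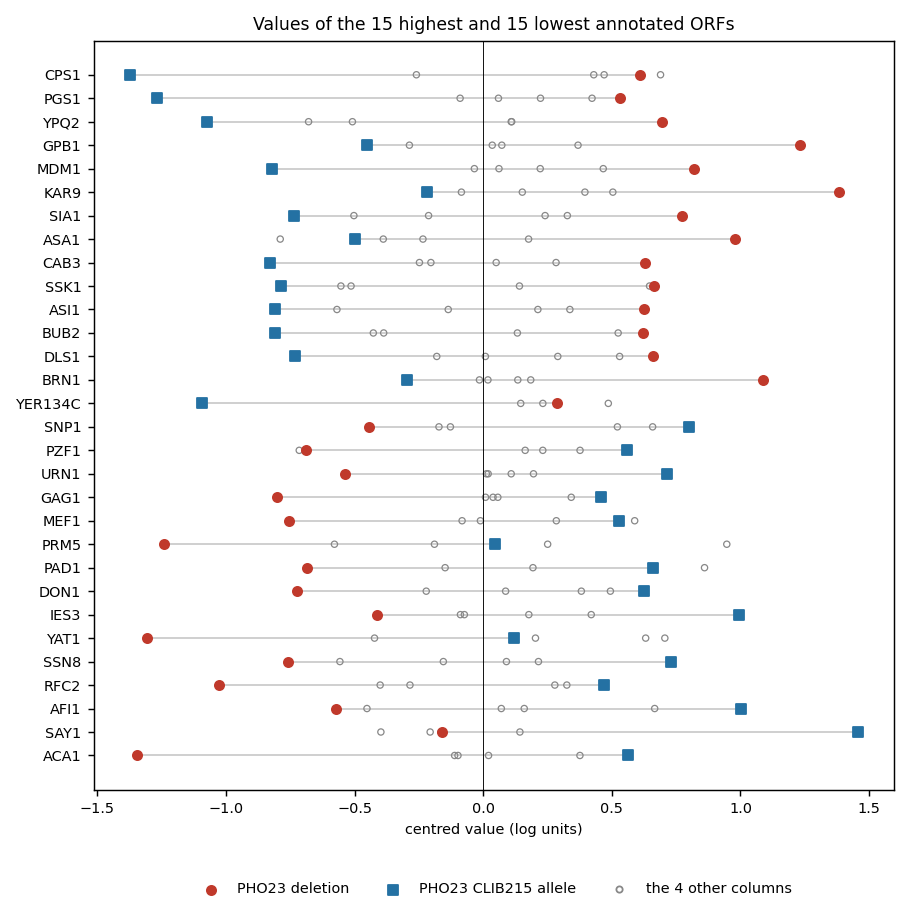
Centred values in log units (horizontal axis) of the 15 annotated ORFs with the highest and the 15 with the lowest difference; circles are the PHO23 deletion, squares the PHO23 CLIB215 allele and open circles the 4 other columns, 1 pooled value each. CPS1, PGS1 and YER134C show the allele far below all other columns, GPB1, KAR9 and BRN1 show the deletion far above them, and SAY1 shows the allele far above.

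Gene groups hardly moved as wholes. Of 49 lists with at least 5 members, 48 had a median within 0.2 of 0, and the medians ran from −0.19 for fatty acid synthesis to 0.21 for the Rpd3L and Rpd3S complex. In 20 of the lists no member was 1 unit apart. Of the 159 ORFs past the rule, 26 of the 97 higher and 15 of the 62 lower ORFs were on any list, against 1533 of all 4956 (30.9%). The counts below stand beside 1.96% higher and 1.25% lower over all ORFs, and a median of 0.02. The lists, like the choice of this comparison, were written with earlier results of these data known.

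**Figure D4:**
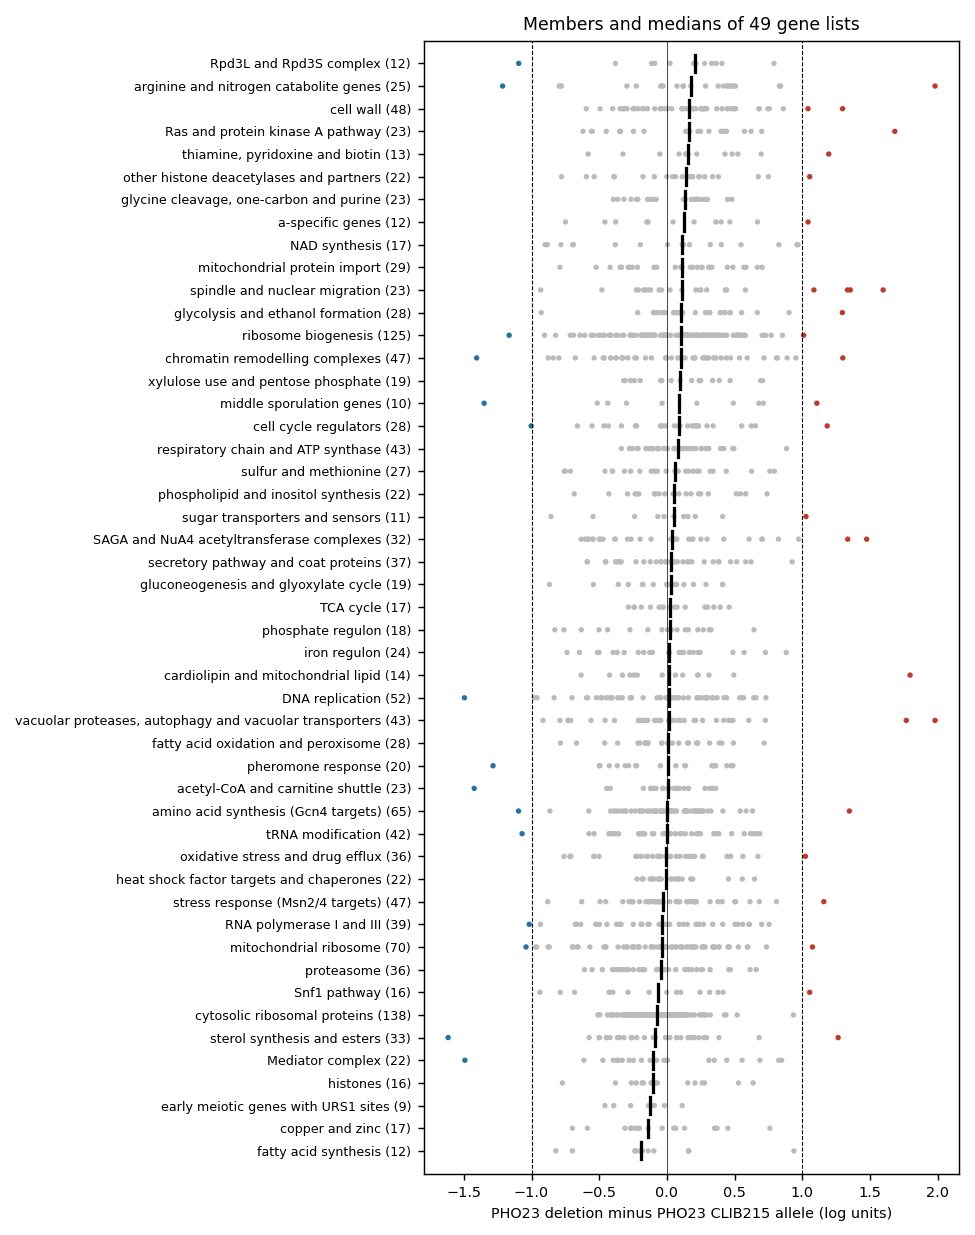
Difference of each member, PHO23 deletion minus PHO23 CLIB215 allele, in log units, for 49 gene lists ordered by their median (black bar), with the number of members in brackets; coloured points are at least 1 unit from 0. Medians lie between −0.19 and 0.21, and spindle and nuclear migration has 4 members at 1 or more.

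Chromatin regulators were considered first, since the edited gene belongs to them. Of 12 members of the Rpd3L and Rpd3S list, 8 were above 0 and 4 below it, with a median of 0.21. The only one past 1 unit was RCO1, which codes for a subunit of Rpd3S, the small complex that Pho23 does not belong to. RCO1 differed by −1.09, with −0.89 in the deletion and 0.20 with the allele, beside −0.49 to 0.65 elsewhere. The subunits named next were chosen after their values were seen, and not all members below 0 are named. Of the shared genes, the catalytic and scaffold genes among them, RPD3 was at −0.09, SIN3 at 0.33 and UME1 at −0.11. Of the genes of Rpd3L alone, UME6 had the largest difference at 0.79, with RXT2 at 0.41, DEP1 at 0.36, ASH1 at 0.28, RXT3 at 0.21, CTI6 at 0.20 and SAP30 at 0.02.

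Among 22 other histone deacetylases and partners, the corepressor gene TUP1 was past the rule at 1.06, with 0.64 in the deletion and −0.41 with the allele. TUP1 reached 0.80 with the T73 allele of PHO23 and −0.45 with the CLIB215 allele of RXT3, so neither value was outside the other columns. In the 47 members of chromatin remodelling complexes 1 was higher and 1 lower: RSC2, of the RSC complex, at 1.30 and IES3. RSC2 had 0.30 in the deletion and −1.0 with the allele, beside 0.05 to 0.54. In the SAGA and NuA4 list 2 of 32 were higher, ADA2 at 1.34 and ASA1, the ASTRA complex gene named above. ADA2, an adaptor of the Gcn5 acetyltransferase, had 1.04 in the deletion and −0.29 with the allele, beside −0.09 to 0.18. Of 22 Mediator genes 14 were below 0, and SSN8 alone was past the rule. The 16 histone and histone chaperone genes had a median of −0.10, led by HIR1 (−0.77) and CSE4 (0.64).

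The list of spindle and nuclear migration genes had the largest share of members at least 1 unit higher among the 49 lists, 4 of 23 (17.4%). None of the 23 was at least 1 unit lower. Under the naming of the genotype field none of the 4 was past 1 unit, with 0.72 for KAR9, 0.75 for STU1, −0.56 for KAR3 and −0.51 for BIK1. Besides KAR9 these were the kinesin gene KAR3 (1.36), the microtubule plus-end gene BIK1 (1.34) and the CLASP gene STU1 (1.09). KAR3 had 1.19 in the deletion and −0.16 with the allele, beside −0.72 to 0.73. BIK1 had 1.06 in the deletion and −0.27 with the allele, beside −0.78 to 0.08, and STU1 had 0.46 in the deletion and −0.62 with the allele, beside −0.30 to 0.26. The median of the list was 0.11. Of its other members, chosen after their values were seen, the tubulin genes were at 0.43 (TUB1), 0.22 (TUB2) and −0.17 (TUB3), and the dynactin gene JNM1 was at −0.93. BIM1, whose product binds Kar9, was at 0.11. The counts depend on who was listed: SPC29, a spindle pole body gene outside the list, was lower at −1.03.

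In the cell cycle list, YOX1, a repressor of early cell cycle genes, was at 1.18, and CDH1, an activator of the anaphase-promoting complex, at −1.003. CDH1 had −1.22 in the deletion and −0.21 with the allele, beside 0.04 to 0.36. Of 52 DNA replication genes RFC2 alone was past the rule.

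Lists of genes for nutrient signalling and carbon use had medians near 0. In the Ras and protein kinase A list 15 of 23 members were above 0, the median was 0.16 and GPB1 alone was past the rule. In the Snf1 list this was TUP1. Gluconeogenesis and the glyoxylate cycle had a median of 0.03 over 19 members with none past the rule, and ERT1 (−0.87), a regulator of gluconeogenesis, and FBP1 were lowest. Of the 23 acetyl-CoA and carnitine genes YAT1 alone was past the rule, and the median was 0.01. Glycolysis and ethanol formation had 20 of 28 above 0 and a median of 0.11, and PYK2, the minor pyruvate kinase gene, was at 1.30. PYK2 was low in both strains, with −0.49 in the deletion and −1.78 with the allele, beside 0.12 to 0.42.

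For growth on xylulose the pentose phosphate genes were listed. Of 19 members 11 were above 0, the median was 0.10 and none passed the rule. The largest were SOL1 at 0.71 and ZWF1, the glucose-6-phosphate dehydrogenase gene, at 0.69, with 0.28 in the deletion and −0.42 with the allele. Of 11 sugar transporter and sensor genes HXT3 was at 1.03, with 0.33 in the deletion and −0.70 with the allele; the hexose transporter genes are close paralogs, among which reads may have been shared. The respiratory chain and ATP synthase had 27 of 43 above 0 and a median of 0.08, with HAP2, a subunit gene of their activator, at 0.88 and COR1 at 0.50. TCA cycle genes had a median of 0.02, with MDH1 (0.46) and SDH1 (0.39) highest.

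Lipid genes were split. In sterol metabolism SAY1 was lower, and ARE2, a sterol acyltransferase gene, higher at 1.27, with 0.54 in the deletion and −0.73 with the allele. In cardiolipin and mitochondrial lipid genes PGS1 was higher and the median of 14 members was 0.01. Fatty acid synthesis had the lowest median, −0.19, with 3 of 12 above 0, but its largest single value was the other way: ACC1, the acetyl-CoA carboxylase gene, at 0.94, with 0.83 in the deletion and −0.11 with the allele. SPT23, an activator of the desaturase gene OLE1, was at −0.82. Phospholipid and inositol synthesis had a median of 0.05, with CDS1 (0.74) and EKI1 (−0.68) farthest from 0. The list of peroxisome and fatty acid oxidation genes had a median of 0.01, with IDP3 at −0.79 and PEX17 at 0.72 farthest from 0. PEX4 (1.19) and PEX22 (1.11), named above, are peroxisome genes that this list does not hold.

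Nitrogen and vacuole genes held the highest ORF. Of 25 arginine and nitrogen catabolite genes 16 were above 0, with a median of 0.18, CPS1 highest and DAL7, a malate synthase gene of allantoin use, lowest at −1.21, with −0.77 in the deletion and 0.44 with the allele. The vacuolar and autophagy list had CPS1 and YPQ2 past the rule and a median of 0.01 over 43 members. In amino acid synthesis ARG8, of arginine synthesis, was at 1.35 and LYS1, of lysine synthesis, at −1.10, and the median of 65 members was 0.002. The sulfur and methionine list had MET22 at 0.79 and MET3 at 0.76. Glycine cleavage, one-carbon and purine genes had a median of 0.14, led by IMD4 (0.48) and ADE1 (0.45). In NAD synthesis SDT1 (0.97) and BNA5 were highest, and BNA5 was low in both strains, with −1.51 in the deletion and −2.47 with the allele. THI20, of thiamine synthesis, was at 1.20 among 13 vitamin genes, of which 10 were above 0.

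PHO5, the acid phosphatase gene for whose control PHO23 was named, was high in both strains. It had 0.75 in the deletion and 1.52 with the CLIB215 allele, while the 4 other columns lay between −0.50 and −0.13. The difference between both strains was −0.76, short of the rule. Of 18 phosphate regulon genes none passed the rule and the median was 0.02. VTC1, of the polyphosphate synthesising complex, was lowest at −0.83. Metal regulons were similar: 24 iron genes had a median of 0.02, with CTH1 at 0.88 and AFT1 at −0.74, and 17 copper and zinc genes had −0.14, with CTR2 at 0.76 and IZH1 at −0.70.

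Lists of genes for protein synthesis and folding had medians near 0. In ribosome biogenesis 69 of 125 members were above 0 and the median was 0.11, with LCP5 higher at 1.01 and UTP30 lower at −1.17. Of 138 cytosolic ribosomal protein genes 55 were above 0, the median was −0.07 and none passed the rule. The highest, RPS28B (0.94), is 1 of a pair of paralogs whose reads are hard to separate, and RPP0 followed at 0.52. RNA polymerase I and III genes had a median of −0.03 with TFC8 at −1.02, and transfer RNA modification 0.00 with IKI1, of Elongator, at −1.07. The mitochondrial ribosome had a median of −0.04 over 70 members, with MRPL28 at 1.08 and MRP2 at −1.04. Proteasome genes had −0.04, with ECM29 (0.66) and RPN2 (0.61) highest, heat shock factor targets −0.01, with SSC1 (0.65) and SSA2 (0.56), mitochondrial import 0.11, with TIM9 (−0.79) and TIM54 (0.70), and the secretory pathway 0.03, with SEC61 (0.93) and ERP2 (0.62).

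Stress, surface and mating lists had at most 2 members past the rule. Of 47 stress response genes the phosphatase gene SDP1 alone was past the rule, at 1.16, and the median was −0.03. The cell wall list had 30 of 48 above 0 and a median of 0.17, with RLM1, the transcription factor gene of cell integrity signalling, at 1.30 and the glucanosyltransferase gene GAS5 at 1.04. TPO4, a polyamine exporter gene, was at 1.02 among 36 genes of oxidative stress and drug efflux. The agglutinin subunit gene AGA2 was at 1.04 among 12 a-specific genes, and PRM5 was the only one of 20 pheromone response genes past the rule. On the list of α-specific and silent mating genes only HO (−0.82) and HMRA1 (−0.01) were complete. HO codes for the endonuclease of mating-type switching and is in neither class. The sequence of HMRA1 is also that of the expressed a1 gene.

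Meiotic genes bear on Rpd3L through Ume6 and URS1. Only 9 of 33 early meiotic genes had a value in all columns. Their median was −0.12, 8 of the 9 were below 0 and none passed the rule, with CST9 at −0.46 and RIM4 at −0.39 lowest. Of 10 complete middle sporulation genes DON1 was lower and SPR6 higher at 1.11.

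The core of URS1, written GGCGGC, was searched on both strands in the 300 bases before the start codon of each of the 4858 annotated ORFs. It was present in 7 of 58 lower ORFs (12.1%) and in 3 of 90 higher ones (3.33%), against 222 of all promoters (4.57%). The median difference was −0.01 with the core and 0.01 without it. The 7 lower genes were DON1, YBR225W, YPR127W, RAX1 of bud site selection, the magnesium transporter gene MNR2, YBR284W and INN1 of cytokinesis, and their sites are shown so that the bases around the core can be compared. DON1 alone of them was on a meiotic list. The sequences are from R64, in the direction of transcription with the core in capitals (the reverse complement where it reads GCCGCC), and are shorter where the window ends.

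DON1 (chrIV:1010003-1010032, plus strand): tccaataatacgGGCGGCtcgagtagagta
YBR225W (chrII:670400-670429, plus strand): cagtttagtgcgGCCGCCgaaaatacatca
YPR127W (chrXVI:789783-789803, plus strand): tcgGCCGCCttaggaagggat
RAX1, upstream site (chrXV:880803-880832, plus strand): ttatgtaacttcGCCGCCcgccgccattcg
RAX1, downstream site (chrXV:880810-880839, plus strand): acttcgccgcccGCCGCCattcgaggaaaa
MNR2 (chrXI:317464-317481, plus strand): GGCGGCgatctacggaga
YBR284W (chrII:771096-771125, plus strand): aaaaatatcgttGGCGGCtaaatacggggg
INN1 (chrXIV:346155-346184, plus strand): attgtatgaaaaGCCGCCtctgctgatcat

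The core ended 125 to 155 bases before the start codon in DON1, RAX1, YBR284W and INN1, 209 bases before it in YBR225W, and 291 and 294 bases before it in YPR127W and MNR2. YBR284W differed by −1.03, with −0.56 in the deletion and 0.47 with the allele, and INN1 by −1.02, with −0.14 in the deletion and 0.88 with the allele. A match of letters is no evidence that Ume6 binds there. The 3 higher genes with the core were HOG1, YBR196C-B and TAR1. TAR1 lies within the ribosomal DNA repeat on the strand opposite to the 25S ribosomal RNA, and whether the counting used strand is not given in the sources used here.

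DON1 had −0.73 in the deletion and 0.62 with the allele, beside −0.22 to 0.49 in the other columns. Its promoter is given whole, since it is the lower gene that both carries the core and belongs to sporulation (chrIV:1009876-1010175, plus strand).

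DON1 promoter: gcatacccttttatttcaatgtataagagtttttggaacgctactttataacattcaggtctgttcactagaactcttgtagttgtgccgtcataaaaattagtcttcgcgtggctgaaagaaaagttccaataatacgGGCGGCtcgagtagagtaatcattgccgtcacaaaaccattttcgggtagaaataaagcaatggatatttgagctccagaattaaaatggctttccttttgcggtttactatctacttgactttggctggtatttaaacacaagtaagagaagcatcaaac

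The other motifs searched in the same way were less unequal, except the palindromic E-box CACGTG, which was in 5 of 90 higher (5.56%) and none of 58 lower ORFs, against 3.64% of all promoters. The MCB core ACGCG was in 17.8% of higher and 17.2% of lower ORFs, against 15.8% of all. The stress element AGGGG was in 22.2% of higher and 20.7% of lower ORFs, against 1119 of all 4858 promoters. The Gcn4 core TGACTC was in 6.67% of higher and 6.90% of lower ORFs, against 8.15% of all. The pheromone response element TGTTTCA was in 8.89% of higher and 10.3% of lower ORFs, against 7.06% of all. These counts are descriptions, with small numbers in each direction.

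Among the 90 higher and 58 lower annotated ORFs, 2 pairs lay within 1000 bases of each other. The unannotated ORFs past the rule, YMR119W-A among them, have no coordinates and were not placed. VAB2 and YEA4, on chromosome V, are transcribed away from each other from a shared region of 195 bases. VAB2, whose product is a vacuolar membrane-associated protein of the BLOC-1 complex, differed by 1.23, with 0.50 in the deletion and −0.73 with the allele. YEA4, a sugar nucleotide transporter gene of chitin synthesis, differed by 1.20, with 0.40 in the deletion and −0.80 with the allele. In both genes the allele was the lowest of the 6 columns. The shared region holds none of the other motifs, and the palindromic TATATA, present in 36.4% of all promoters, is in capitals (chrV:146756-146950, read on the plus strand, towards YEA4).

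VAB2 and YEA4 region: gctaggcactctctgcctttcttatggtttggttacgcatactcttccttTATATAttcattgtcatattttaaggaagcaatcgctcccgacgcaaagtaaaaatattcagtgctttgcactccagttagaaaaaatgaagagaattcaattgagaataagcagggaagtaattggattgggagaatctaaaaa

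The second pair, TOR1 and RFC2 on chromosome X, are read in the same direction with 814 bases between them, and differed in opposite directions, by 1.37 and −1.50. By chromosome the medians ran from −0.05 on chromosome I to 0.08 on chromosome III, so no chromosome was shifted as a whole. The chromosomes named next were chosen for uneven counts after these were seen, and the counts are small. Over all 4956 ORFs 1.96% were higher and 1.25% lower. Chromosome V had 9 ORFs higher and 1 lower of 227, and chromosome X 8 higher and 1 lower of 292. Chromosome VI had none higher and 3 lower of 90, and chromosome XVI 5 higher and 9 lower of 383. Within 50 kb of a chromosome end 13 of 401 ORFs were lower (3.24%) and 7 higher (1.75%). Within 20 kb 3 of 61 were lower and none higher, with a median of −0.05. The 3 were LYS1, YKR104W and MIX23, a mitochondrial protein gene, named after their values were seen.

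Longer ORFs were shifted slightly towards the deletion. In 5 classes of equal size by ORF length the median difference was −0.03 and −0.03 in the 2 shortest, up to 678 and 1042 bases, 0.03 in the middle class, and 0.06 and 0.06 in the 2 longest, from 1488 bases on. ORFs higher in the deletion had a median length of 1436 bases and lower ones 1127 bases, against 1254 bases over all annotated ORFs. Single ORFs within the classes had an SD of 0.405 to 0.461. How length enters the authors' values was not tested.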

How the data were processed

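RNA was fragmented, enriched for polyadenylated molecules and reverse transcribed from barcoded primers with molecular identifiers, per the labels' protocols. The submitters' processing notes name Bowtie and the R64 build. The authors deposited 1 table of centred log values, read here as log2 values, with 1 column per group of 3 libraries. For counting, filters and centring no method is given in the sources used here; depth is unknown. Columns were assigned by sample title and treated as the authors' pooled values. Of 6701 rows, 51 have no ORF name and no value. ORFs were matched to RefSeq R64, where 4858 of 4956 were found and 98 were not. Among the 4956 ORFs, 8 sets of 2 share all 6 values exactly, mostly copies or overlapping ORFs, none of them 1 unit apart.

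Differences, counts, medians and motif matches were computed in Python 3.11.15 with pandas 2.3.3 and numpy 2.4.6, and the counting was checked on simulated data. No test was run, since no column has replicates. The ORFs compared, the 50 gene lists and the size rule were chosen with earlier results of these data known. The named genes are the 15 highest and the 15 lowest annotated ORFs. List members past 1 unit are also named, or up to 2 with the largest difference where none passed. PHO23, RXT3 and the 3 coding genes on each side of PHO23 were added. So were some of the list members lacking a value in 1 of both columns only. All other genes named were chosen after their values were seen. Alternatives were another naming of the columns, membership, centring, scaling and threshold.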

Additional observations from a re-analysis of the deposited data

How the results depend on the processing

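No paired analysis was possible because each group has 1 pooled column, and no replicate could be left out for the same reason. Naming the columns by the genotype field, which sets the column titled T73RXT3 against that of the CLIB215 allele of PHO23, gave 218 ORFs higher and 119 lower. It moved 45 of the 49 list medians by over 1.5 times or across 0, to between −0.41 for ribosome biogenesis and 0.82 for a-specific genes, with 0.60 for gluconeogenesis and −0.40 for cytosolic ribosomal proteins. Of 100 genes named by rank or from a list, 59 moved in that way. Some of the 59 that were short of 1 unit crossed 0, such as ERP2 (−0.66) and ECM29 (−0.96). A further 6 genes past 1 unit changed sign: BIK1 (−0.51), KAR3 (−0.56), LCP5 (−0.16), PAD1 (0.20), CDH1 (0.42) and PRM5 (0.90). With columns scaled to equal SD 37 ORFs were higher and 16 lower, since both columns are the widest and shrink. A threshold of 1.5 units left 8 higher and 4 lower, and one of 0.8 units gave 212 and 176. With ORFs that have a value in both columns (105 higher, 70 lower) and with column medians set to 0 (90 higher, 71 lower) the counts stayed within 1.5 times, and the latter moved 23 list medians, all of them small. Leaving out YNL097W-A or unannotated ORFs, added after seeing the data, moved no count or list median by over 1.5 times. Depth is unknown, so what it limits cannot be given.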

Other observations

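A further 188 ORFs had a value in both columns but not in all 6. Of these, 8 were at least 1 unit higher in the deletion and 8 lower. SSN2, which like SSN8 codes for a part of the Mediator kinase module, was the highest at 2.09, with 1.61 in the deletion and −0.49 with the CLIB215 allele, and so lay on the other side from SSN8. The Rab GTPase gene YPT11 was at 1.87, with 0.77 in the deletion and −1.10 with the allele. The lowest was CDC40, a splicing factor gene, at −2.30, with −0.60 in the deletion and 1.70 with the allele. DPB2, a DNA polymerase epsilon subunit gene, was at −1.04.

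Some ORFs had a value in all columns but one of these 2. In the deletion 36 ORFs lacked a value, PHO23 among them, and 18 of the 36 were on a gene list. They include the sulfate genes SUL2 (−0.19 with the allele) and MET14 (−0.62) and the allantoin and urea genes DAL3 (−0.62) and DUR3 (−0.28). Others are the cyclic AMP phosphodiesterase gene PDE2 (−0.26) and the glycerol transporter gene STL1 (−1.64). Above 0 with the allele were the iron gene FRE3 (0.66), PHM8 (0.52) and REC8 (0.16). Not all list members without a value are named here. With the CLIB215 allele 58 ORFs lacked a value, 19 of them on a list. They include the acetyltransferase complex genes EPL1 (−1.01 in the deletion) and SGF11 (0.78) and the ASTRA complex gene TTI1 (0.48). Others are the nuclear migration genes PAC1 (0.46) and KIP2 (0.10), the iron genes ARN2 (−1.21) and FRE2 (−0.27) and the peroxisomal catalase gene CTA1 (−1.12). What a missing value stands for is not given in the sources used here.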
